A study of Drosophila melanogaster with 3 samples.

Results

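The genes described here encode subunits of the mitochondrial respiratory chain and ATP synthase, chosen as all protein-coding genes on 6 chromosome arms of Drosophila melanogaster whose symbol starts with ND-, Sdh, UQCR-, COX or ATPsyn. The rule took 88 of 13945 protein-coding genes. Of these, 63 are subunits, 24 are paralogs whose symbol ends in L or in L and a digit, and 1, Sdhaf3, is named as an assembly factor of complex II and not as a subunit. The label of a set of subunits therefore fits 63 of the 88 genes, and the paralogs are given apart from them below.

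The data were ChIP-seq peaks (sequenced chromatin immunoprecipitates) of PAR-domain protein 1 (Pdp1) in 3 biological replicates of a single group. The embryos were aged 0 to 24 h, were of both sexes and came from the line Pdp1-MiMIC-GFP, in which an eGFP exon placed in an intron of Pdp1 makes the protein a Pdp1-eGFP fusion that an antibody against GFP pulls down. All 3 replicates carry the tagged allele, are whole embryos pooled over every tissue and stage of that day, and were sonicated to fragments of 200 to 800 bp, so a peak cannot be assigned to a cell type. Values from untagged embryos were not analysed here, and with 1 group no comparison between conditions was possible.

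The respiratory chain passes electrons from NADH (complex I) and succinate (complex II) through complex III to oxygen at complex IV, and ATP synthase (complex V) uses the proton gradient that complexes I, III and IV build. All complexes but complex II mix subunits encoded in the mitochondrial and the nuclear genome, and the genes here are the nuclear ones. Pdp1 is a basic leucine zipper (bZIP) factor of the PAR family, known for its part in the circadian clock and in muscle and fat body gene expression of the fly. PAR factors bind the palindrome TTACGTAA and its variant TTATGTAA, which reads TTACATAA on the other strand. An element that contains words of this form, the nuclear respiratory gene (NRG) element, has been described in respiratory chain genes of Drosophila.

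Taken as 1 set, the 88 genes carried Pdp1 peaks at their promoters about as often as the rest of the genome, but that average joined subunits, of which 20 of 63 had a thresholded summit, with paralogs, of which 0 of 24 had one. A promoter summit is the highest point of a peak no more than 500 bp from a gene's transcription start (TSS), and the thresholded list holds the 4622 peaks that the authors kept for reproducibility, which are those of the pooled call with a signal of at least 102. The count of 20 genes is 22.7% of all 88 (95% Wilson interval 15.2 to 32.5%), beside 20.7% of the 13857 other protein-coding genes. Among subunits alone the share was 31.7% (21.6 to 44.0%), and for the paralogs the Wilson interval of 0 of 24 reaches 13.8% (12.5% by the simpler limit of 3 counts of the total). These intervals and limits cover counting error only. In the longer list called on the 3 replicates pooled, 49 of the 88 genes (55.7%) had a promoter summit, beside 51.1% of other genes, and the split was 46 of 63 subunits (73.0%) against 2 of 24 paralogs (8.33%). In the pooled list Sdhaf3 had a summit with a signal of 58.2.

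The same order held in each replicate. Over the 30000 peaks of each list, promoter summits were found for 56 of the 88 genes in replicate 1, 35 in replicate 2 and 59 in replicate 3, beside 53.6%, 36.7% and 54.1% of other genes. The subunits contributed 52, 29 and 52 of them and the paralogs 3, 5 and 6. When every replicate list was reduced to its 4622 highest peaks, 22, 19 and 19 of the 63 subunits kept a promoter summit, 31.7% ± 2.75 (SD, n = 3), and 0 paralogs did in each of the 3. Other genes then had shares of 21.4%, 18.3% and 20.1%. Summits in all 3 whole replicate lists were found for 26 subunits and 0 paralogs. No summit in any list was found for 13 paralogs and for 2 subunits, COX4 and UQCR-C1. No share of other genes stands beside these counts over several lists, so whether they are unusual was not tested.

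By complex, the share of subunits with a thresholded summit was highest in complex IV, cytochrome c oxidase. There it was 5 of 8 subunits (62.5%, Wilson interval 30.6 to 86.3%), and also 5 of 8 in each replicate's highest peaks. Complex II, succinate dehydrogenase, had 2 of 4 subunits (15.0 to 85.0%) and ATP synthase 4 of 11 (36.4%, 15.2 to 64.6%). In complex I the count was 8 of 34 subunits (23.5%, 12.4 to 40.0%), made up of 2 of the 7 core subunits that carry out electron transfer from NADH and 6 of the 27 accessory ones. Complex III had 1 of 6 (16.7%, 3.01 to 56.4%). The intervals of all 5 complexes overlap, so the order of the complexes is not resolved at these gene numbers. All 5 complex IV summits also lay within 500 bp of another gene's TSS, which was the nearer one at COX5B, COX7B and COX6B. Another gene's TSS lay within 500 bp of a start site in 7 of 8 complex IV subunits. The counts were 7 of 11 in complex V, 20 of 34 in complex I, 3 of 6 in complex III and 1 of 4 in complex II. The part of these neighbours in the order of the complexes was not tested. In the pooled list a promoter summit was present in 10 of 11 ATP synthase subunits (90.9%), 6 of 8 in complex IV (75.0%) and 3 of 4 in complex II (75.0%). It was present in 23 of 34 in complex I (67.6%) and 4 of 6 in complex III (66.7%), beside 51.1% of other genes. No intervals were computed for these pooled counts, so the order of the complexes is not resolved there either.

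**Figure D1:**
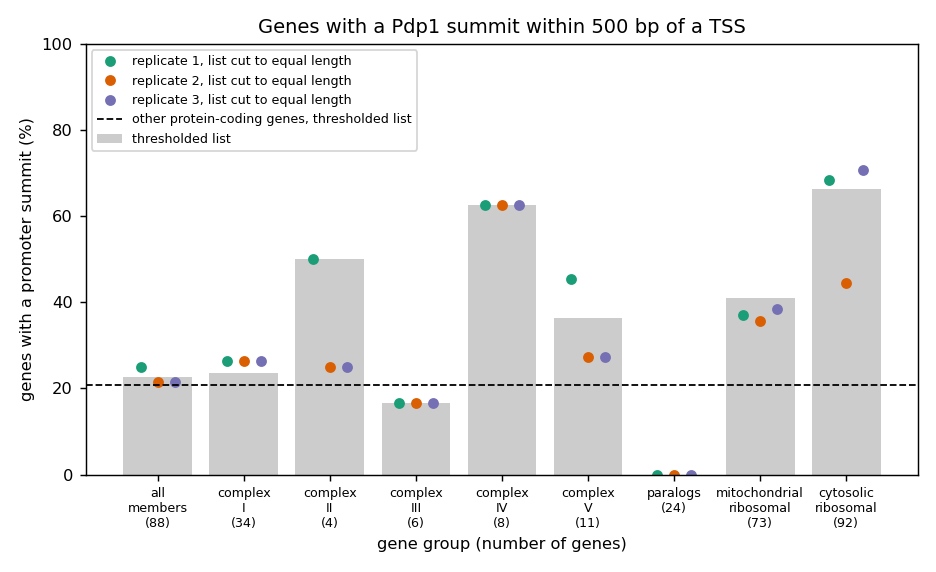
Share of genes (%, vertical axis) with a Pdp1 summit within 500 bp of a TSS, for gene groups with their number of genes (horizontal axis). Grey bars give the thresholded list, points the 3 replicate lists reduced to their 4622 highest peaks, and the dashed line the 20.7% of other protein-coding genes. Complex IV stands at 62.5% in the thresholded list and in every replicate, while the paralogs stand at 0.

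The 20 genes with a thresholded summit were served by 21 summits, of which ND-42 has 2. Their signal, the peak caller's own value for a peak, is not scaled between lists and is given to describe and rank peaks. It ranged from 104 to 598 with a median of 190, beside a median of 197 for the other genes with such a summit. In 18 of the 20 genes every whole replicate list had a promoter summit. The other 2, ND-24 and UQCR-14, had none in replicate 2, where the nearest summit lay 7189 and 6765 bp away. The thresholded list was itself kept for reproducibility, so such presence was partly built into the choice of these genes. No share of other genes stands beside it. At SdhC and ND-42 the replicate 3 summit nearest to the thresholded one lay 323 and 130 bp from it, so the promoter summits of that replicate are other summits. ATPsynbeta had its thresholded summit at -426 bp, but its highest promoter summits in replicates 1 and 3 lay at -41 and 17 bp. Those had 38.3 and 46.4, and the summits nearest to the thresholded one 37.2 and 27.8. Just above the threshold lay SdhC and ATPsynB, both at 104, and just below it, in the pooled list, ND-AGGG at 100, ND-B18 at 98.3 and ND-MNLL at 98.1. The values of the 12 genes with the highest signal follow by complex, in coordinates of the dm6 build, and the roles given are those of the mammalian counterparts.

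In complex I, the strongest peak of the whole set lay before ND-ASHI, an accessory subunit of the membrane arm, at chrX:6679234-6679514. Its thresholded signal was 598, and the replicates had 214, 202 and 178, a mean of 198 ± 18.6 (SD, n = 3). The unscaled values of the 3 replicates were close to each other. The summit, at -231 bp from the nearest ND-ASHI TSS, fell in an intron of Fum1, the fumarase gene, whose TSS is 291 bp away. ND-MWFE, another accessory membrane-arm subunit, had a thresholded signal of 515 at chr2R:13158356-13158667 with replicate values of 174, 255 and 84.5, a mean of 171 ± 85.4. Replicate 3 had the lowest of these unscaled values, and the summit lay nearer to the TSS of TppII (19 bp) than to that of ND-MWFE (-202 bp). Both flavoprotein-module core subunits, which take electrons from NADH, were in the list. ND-51 had 430 at chr2L:6062744-6062997, with 159, 154 and 111 in the replicates, a mean of 141 ± 26.6, and a summit at -123 bp shared with CG13994 at 109 bp. ND-24 had 368 at chrX:17632112-17632315, with 157 in replicate 1, none in replicate 2 and 108 in replicate 3, so the gene rests on the remaining 2 replicates. Its summit lay at -107 bp, in an intron of ND-24.

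Further accessory subunits of complex I had lower peaks. For ND-42, of the matrix side of the membrane arm, the signal was 280 at chr3R:22027269-22027448, with 116, 108 and 67.3 in the replicates, a mean of 97.1 ± 26.1. The replicate 3 value belongs to another promoter summit, at -131 bp and 130 bp from the thresholded one, so the mean joins 2 positions. The higher thresholded summit lay 32 bp from a TSS of Cchl, the cytochrome c heme lyase gene, and at -261 bp from that of ND-42. The ND-SGDH peak, at chr3L:12138671-12138880, had a signal of 241, with 83.8, 120 and 45.4 in the replicates, a mean of 82.9 ± 37.1, and a summit at -173 bp. Replicate 2 was highest and replicate 3 lowest there. The TSS of RhoGAP68F was nearer to that summit, at 111 bp. Among the 12, ND-B17 had the lowest signal, 168 at chr2L:15750986-15751395, with 68.8, 56.4 and 36.1, a mean of 53.8 ± 16.5. It is also the only one of the 12 with no other gene's TSS within 500 bp of its summit, which lay at -113 bp.

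In complex IV, COX5A, a nuclear-encoded subunit bound to the catalytic core on the matrix side, had a signal of 347 at chr3R:11819481-11819602. Its replicates had 146, 83.0 and 115, a mean of 115 ± 31.2, with summits at -76, -75 and -78 bp. The position was thus held to a few bases while the unscaled signal varied. COX7B, a small membrane subunit, had 215 at chr3L:17425089-17425498, with 84.6, 45.5 and 79.7 in the replicates, a mean of 69.9 ± 21.3. COX5B, which like COX5A sits on the matrix side, had 205 at chr2L:6557348-6557757, with 63.6, 80.9 and 52.8, a mean of 65.8 ± 14.2. Both summits were nearer to a neighbour's TSS, that of Sec3 at 77 bp against -183 bp for COX7B, and that of IFT52 at 51 bp against -247 bp for COX5B. COX8, another small membrane subunit, had 175 at chr3L:21539274-21539683, with 44.1, 89.6 and 32.9, a mean of 55.5 ± 30.0, and a summit at -32 bp. Replicate 2 was the highest there and the lowest at COX5A and COX7B.

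In complex V, ATPsynE, a membrane subunit of ATP synthase, had a signal of 278 at chr3R:14326903-14327081. The replicates had 120, 103 and 52.1, a mean of 92.0 ± 35.6, and the summit lay in the 5' UTR of ATPsynE at 38 bp past a TSS. The remaining 8 genes with a thresholded summit had signals of 104 to 148. They were COX6B of complex IV at 148, the catalytic ATP synthase subunit ATPsynbeta at 136, ND-B22 of complex I at 132, the stalk subunits ATPsynCF6 at 128 and ATPsynB at 104, the membrane anchors of succinate dehydrogenase SdhD at 115 and SdhC at 104, and UQCR-14 of complex III at 113.

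**Figure D2:**
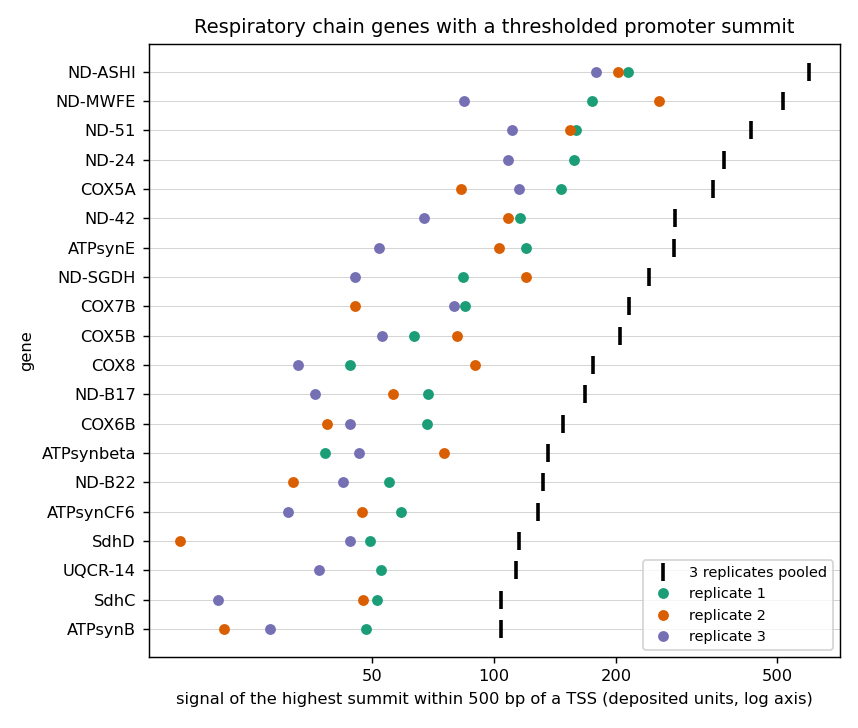
Signal of the highest promoter summit (horizontal axis, deposited units, log scale) for the 20 genes with a thresholded summit (vertical axis), with points for the 3 replicates and a bar for the pooled call. The pooled signal falls from 598 at ND-ASHI to 104 at ATPsynB and SdhC, and replicate 2 has no point at ND-24 and UQCR-14. At ATPsynbeta, SdhC and ND-42 some replicate points belong to another promoter summit than the pooled one.

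The sequences under 6 of these summits are shown because they belong to the 12 genes with the highest signal and overlap no annotated exon. Each is the 101 bases centred on the thresholded summit, read 5′ to 3′ on the strand of the respiratory gene from the RefSeq Release 6 genome. None of the 6 holds a PAR word or the word TATCGATA, so no base is in capitals. The windows of SdhC, ATPsynCF6 and ATPsynbeta, of lower signal, also overlap no exon and are not shown. That of SdhC holds TATCGATA.
ND-ASHI (chrX:6679299-6679399, minus strand): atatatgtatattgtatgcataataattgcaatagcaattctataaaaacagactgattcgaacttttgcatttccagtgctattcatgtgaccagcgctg
ND-51 (chr2L:6062830-6062930, minus strand): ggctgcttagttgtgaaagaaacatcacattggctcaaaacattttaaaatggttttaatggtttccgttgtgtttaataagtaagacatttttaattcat
COX7B (chr3L:17425244-17425344, plus strand): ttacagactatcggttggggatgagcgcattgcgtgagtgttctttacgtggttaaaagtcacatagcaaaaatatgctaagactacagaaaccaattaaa
ND-SGDH (chr3L:12138707-12138807, minus strand): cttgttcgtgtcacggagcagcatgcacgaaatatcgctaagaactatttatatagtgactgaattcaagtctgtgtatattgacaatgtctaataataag
COX5B (chr2L:6557503-6557603, plus strand): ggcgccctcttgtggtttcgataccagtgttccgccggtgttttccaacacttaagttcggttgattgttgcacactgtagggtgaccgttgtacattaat
ND-B17 (chr2L:15751141-15751241, minus strand): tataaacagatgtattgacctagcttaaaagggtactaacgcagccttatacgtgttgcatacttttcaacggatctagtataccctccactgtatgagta

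No PAR word (TTACGTAA, TTATGTAA or TTACATAA, both strands searched) was found within 50 bp of a thresholded promoter summit of any of the 20 genes, beside 1.26% of the 2863 other genes with such a summit. The search was also empty within 100 bp, where other genes had 2.55%, and with TTATATAA added, where they had 2.51%. In the pooled list 2 of the 49 genes with a summit had a PAR word within 50 bp of it, beside 1.07% of other genes. These were ATPsyngamma, 6 bp from a summit, and ND-MNLL, 14 bp from one. The word TATCGATA, bound by the promoter factor DREF, lay within 50 bp of a thresholded summit in 2 of the 20 genes, SdhC and UQCR-14, beside 5.31% of other genes. In the promoter window from 250 bp before to 50 bp after a TSS, TATCGATA was found for 13 of the 88 genes, all of them subunits, beside 10.1% of other genes.

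PAR words were nevertheless frequent in the respiratory genes, downstream of the start site. Within 500 bp of a TSS on either side, 43 of the 88 genes (48.9%) held one, beside 10.3% of other protein-coding genes over windows of the same length. The count was 40 of 63 subunits (63.5%), 2 of 24 paralogs (8.33%, COX6AL2 and COX7AL2) and Sdhaf3. Downstream of a TSS 37 subunits (58.7%) held a PAR word, beside 4.45% of other genes, and upstream 7 (11.1%), beside 6.17%. The bin from 200 to 300 bp downstream alone held one for 18 subunits (28.6%), beside 1.03% of other genes. Genes with a single TSS had a word in 17 of 31 subunits (54.8%) and 8.03% of other genes, and the part of the number of start sites in the counts was not tested. Mean GC content of the promoter window was 35.2% for subunits, 35.2% for paralogs and 39.4% for other genes, and its part in the counts of the words was not tested.

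**Figure D3:**
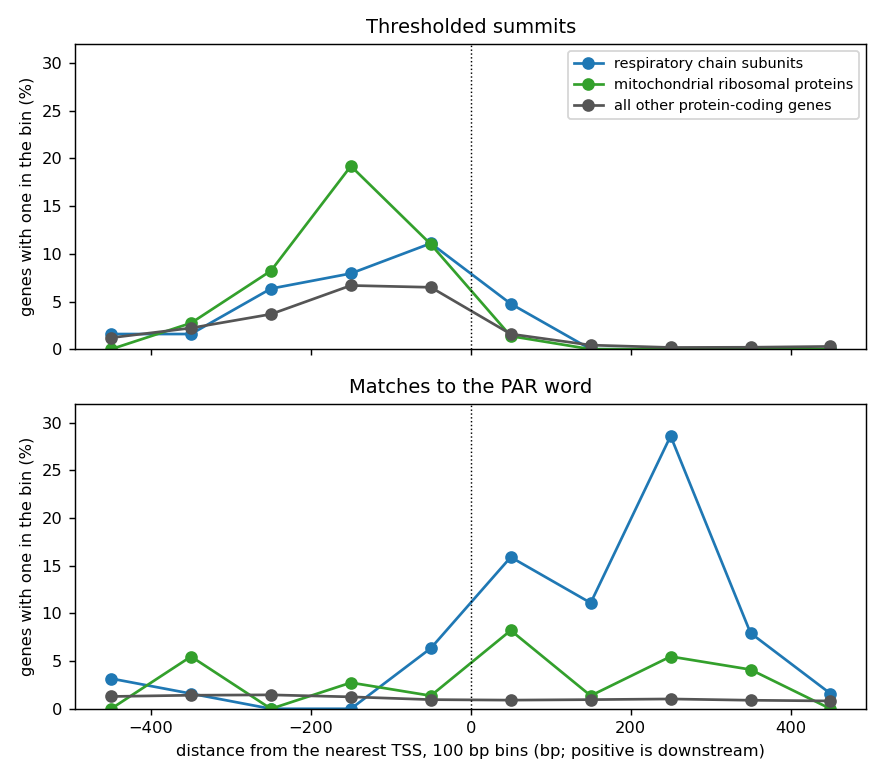
Share of genes (%, vertical axes) with a thresholded Pdp1 summit (upper panel) or a PAR word (lower panel) in each 100 bp bin of distance from the nearest TSS (horizontal axis, positive downstream), for respiratory chain subunits, mitochondrial ribosomal proteins and other protein-coding genes. Summits of the subunits peak at 11.1% in the 100 bp before the TSS and are at 0 beyond 100 bp downstream, while PAR words peak at 28.6% between 200 and 300 bp downstream.

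The 43 genes held 52 PAR words, of which 34 genes had 1 and 9 had 2 or more. On the strand of the gene 14 read TTACGTAA, 15 TTATGTAA and 23 TTACATAA. Of the 52, 43 lay downstream of the nearest TSS, and 30 fell in introns, 16 in 5' UTRs, 2 in coding sequence and 4 outside the gene. The median position was 196 bp downstream, beside -98.5 bp, upstream, for the 1540 words of other genes. A purine before and a pyrimidine after the word, as in the NRG element, were present at 23 of the 52. These flanking bases were not counted for the words of other genes, so whether they are more frequent here was not tested. Below are 12 intronic ones, the PAR word in capitals with 11 bases on each side, shown because all but that of ATPsynG, at 181 bp, lie 200 to 300 bp past the TSS, the bin where subunits and other genes differ most. The 12 read 5′ to 3′ on the strand of the gene, in dm6 coordinates. Not every intronic word of that bin is shown. Those of ND-23 at 209 bp, ND-49 at 205 bp, ATPsynF at 253 bp and UQCR-14 at 246 bp, all without the flanking bases named above, are left out. That of UQCR-Q at 231 bp, which has those flanking bases, is also left out. The flanking bases of the 12 therefore do not stand for those of the 52.
ATPsynB (chr3L:9730218-9730247, plus strand): gacatcgtggtTTATGTAAtcaccacccat
ATPsynD (chr3R:19095201-19095230, plus strand): attgaaaaaaaTTACATAAtttttgcgagc
ATPsynG (chr2L:10976167-10976196, minus strand): caatcgcaaaaTTATGTAAtgatcactttt
ATPsynO (chr3R:15265818-15265847, plus strand): gcgtttcttggTTATGTAAtttttgcccat
ATPsynbeta (chr4:1032087-1032116, plus strand): gaaaaaaaataTTACATAAcaattttgaat
ATPsyndelta (chrX:10213186-10213215, plus strand): aacctacaaagTTACATAAtttggttattt
COX7B (chr3L:17425683-17425712, plus strand): aaccttaaaaaTTACATAAtgtggataagc
ND-51 (chr2L:6062499-6062528, minus strand): atgccatcaaaTTATGTAAtttttgcgcaa
ND-39 (chr3L:20495551-20495580, plus strand): aggcaatccaaTTATGTAAtacgatgtttg
ND-ASHI (chrX:6677926-6677955, minus strand): cactgttttgtTTACGTAActtttgcatgc
UQCR-C1 (chr3R:14890462-14890491, plus strand): gaggatttaaaTTACGTAAttgtaaatgat
UQCR-C2 (chr3L:16584496-16584525, plus strand): gaaggctcgtgTTACGTAAaacaccccaag

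All 11 ATP synthase subunits held a PAR word. In complex IV 6 of 8 subunits did, in complex III 4 of 6, in complex II 2 of 4 and in complex I 17 of 34, of which 6 were among the 7 core and 11 among the 27 accessory subunits. With TTATATAA added the complex I count was 25 of 34, including all 7 core subunits, and that of all subunits 49 of 63 (77.8%), beside 17.2% of other genes. In the narrower promoter window, from 250 bp before to 50 bp after a TSS, a PAR word was found for 8 of the 88 genes (9.09%), beside 3.28% of other genes. The 8 were ATPsynC, the proton-carrying ring subunit, ATPsyngamma, the rotating shaft, COX6B, the core complex I subunits ND-20, ND-49 and ND-75, and the accessory subunits ND-B12 and ND-MNLL. TTATATAA added ND-30, ND-42, ND-SGDH and Sdhaf3, for 12 of 88 genes beside 6.37% of other genes. Genes named for words outside that narrower window were chosen after their values were seen.

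Few PAR words lay near a summit, in these genes and in others. Of the 52 words, 0 had a thresholded summit within 100 bp, beside 75 of 1540 words (4.87%) near other genes, and the closest pair was 138 bp apart, at UQCR-14. Pooled summits lay within 100 bp of 4 words (7.69%), beside 11.1% near other genes. The whole replicate lists had a summit within 100 bp of 5, 1 and 9 of the 52 words, 9.62%, 1.92% and 17.3%, beside 12.3%, 9.16% and 13.6% of the words near other genes. Replicate 3 was thus above the share of other genes, and replicates 1 and 2 were below it. Over all 88 genes, a thresholded summit was present in 12 of 43 with a PAR word (27.9%) and 8 of 45 without (17.8%), and a pooled one in 69.8% and 42.2%. The genes without a word include 22 of the 24 paralogs. Among subunits alone the order was the other way, with a thresholded summit in 12 of 40 with a word (30.0%) and 8 of 23 without (34.8%), and a pooled one in 70.0% and 78.3%. Among other genes the thresholded shares were 25.8% with and 20.1% without. ND-51 shows the arrangement, with a summit at -123 bp and the word TTATGTAA at 206 bp past the TSS, 366 bp from that summit. UQCR-C1, a core subunit of complex III, holds TTACGTAA at 246 bp and had no summit in any list.

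The summits lay upstream of the nearest TSS of the respiratory gene in 17 of 20 genes (85.0%), beside 88.6% of other genes with such a summit, at a median of -110 bp, beside -128 bp. In 15 of the 20 (75.0%) another gene's TSS lay within 500 bp of the same summit, beside 59.2% of other genes, so the summit cannot be assigned to the respiratory gene alone. For 12 genes a thresholded summit remained when each summit was counted only for the nearest TSS, 13.6% of the 88 beside 15.2% of other genes.

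Neighbouring start sites moved with the share of genes that had a summit. Another gene's TSS lay within 500 bp of a start site in 38 of 63 subunits (60.3%), 3 of 24 paralogs (12.5%) and 30.8% of other genes. Among genes with such a neighbour, 15 of 38 subunits had a thresholded summit (39.5%), beside 39.4% of other genes. Without a neighbour the shares were 5 of 25 subunits (20.0%) and 12.3% of other genes. Subunits and other genes thus had nearly the same share where a neighbour was present. The paralogs had 0 of 3 with a neighbour and 0 of 21 without, and the part of the neighbourhood in the split between subunits and paralogs was not tested. Of the paralogs 21 have a single TSS (87.5%), beside 31 of 63 subunits (49.2%) and 73.6% of other genes, and among genes with a single TSS the thresholded shares were 32.3% for subunits, 0 for paralogs and 16.1% for other genes.

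**Figure D4:**
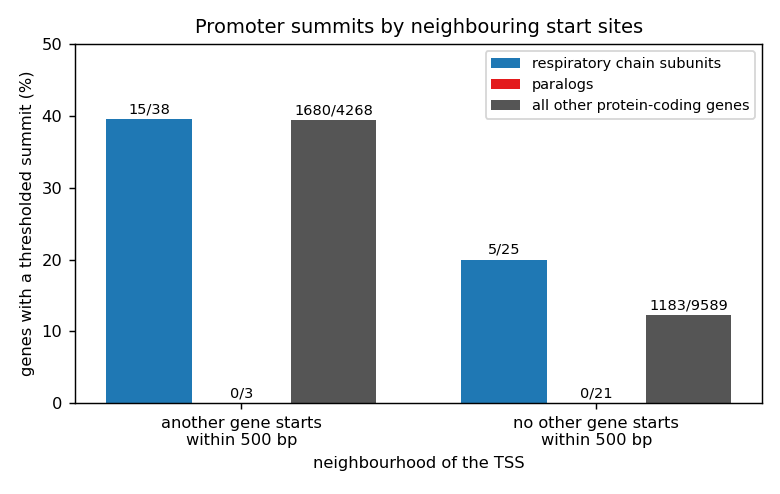
Share of genes with a thresholded promoter summit (%, vertical axis) among genes with and without another gene's TSS within 500 bp (horizontal axis), for subunits, paralogs and other protein-coding genes, with the counts above the bars. With a neighbour, subunits and other genes stand at 39.5% and 39.4%, and the paralogs have none in either class.

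The paralogs could be compared with the subunit genes that give them their names. For 20 of the 24 such a gene was among the subunits, 18 genes in all, of which 7 had a thresholded and 14 a pooled promoter summit. Beside the 430 of ND-51, neither ND-51L1 nor ND-51L2 had a pooled summit, and their replicate values were 9.43 in replicate 3 and 11.2 in replicate 2 alone. COX5BL had no summit in any list beside the 205 of COX5B, and likewise ATPsynbetaL beside the 136 of ATPsynbeta and ND-24L beside the 368 of ND-24. The 2 paralogs with a pooled summit were COX7AL2 at 48.4 and ND-B14.5AL at 34.1, both below the threshold. COX7AL2 was near the pooled list's median of 43.7 over all its peaks, and ND-B14.5AL was nearer to that list's lowest signal, 28.8. COX7AL2 was above its namesake in that list, since COX7A had no pooled summit. Of the 11 paralogs with a summit in some replicate list, 0 had one in all 3.

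**Figure D5:**
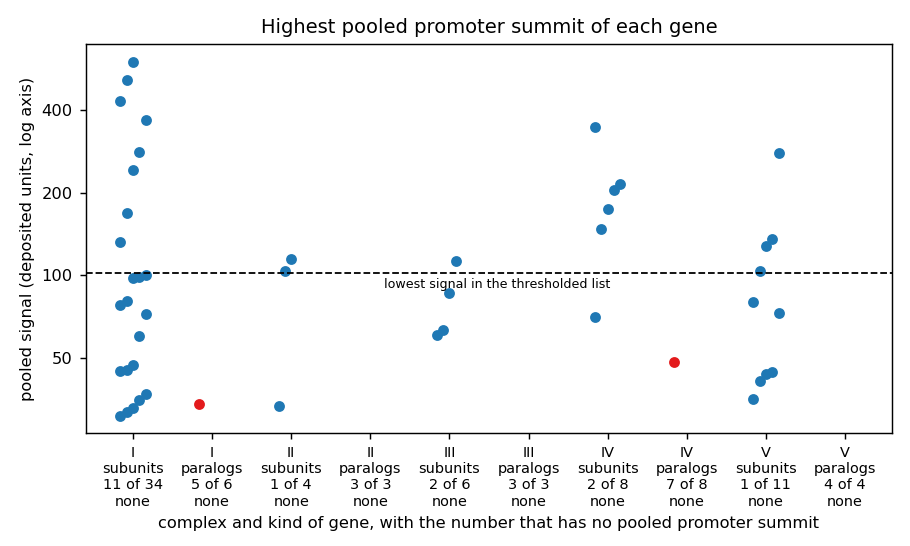
Signal of the highest promoter summit in the pooled list (vertical axis, deposited units, log scale) for each subunit or paralog that has one, by complex and kind of gene (horizontal axis), with subunits in blue and paralogs in red. The dashed line marks the lowest signal in the thresholded list, 102, and the 2 paralogs shown lie below it at 34.1 and 48.4.

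Mitochondrial and cytosolic ribosomal proteins were the gene sets most like this one in size and housekeeping role. A thresholded promoter summit was present in 30 of 73 mitochondrial ribosomal protein genes (41.1%, Wilson interval 30.5 to 52.6%) and 61 of 92 cytosolic ones (66.3%, 56.2 to 75.1%). The interval of the respiratory subunits, 21.6 to 44.0%, overlaps the first and lies below the second, which in the replicates' highest peaks was 61.2% ± 14.5 against 31.7% ± 2.75 (SD, n = 3). PAR words within 500 bp of a TSS had the opposite order, with 63.5% of respiratory subunits, 24.7% of mitochondrial ribosomal protein genes and 5.43% of cytosolic ones.

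Respiratory chain proteins whose symbols the rule does not take were looked at in the same way. Their list also held the ADP/ATP carriers sesB and Ant2 and the channel porin, which are not respiratory chain proteins. Of these 11 genes in all, 3 had a thresholded summit (27.3%, beside 20.7% of other protein-coding genes). They were blw, the alpha subunit of ATP synthase, at 490, levy, a subunit of complex IV, at 268, and Cyt-c-d, a cytochrome c, at 591. A pooled summit was present in 9 of the 11 (81.8%, beside 51.1%) and a PAR word within 500 bp of a TSS in all 11, beside 63.5% of the subunits and 10.3% of other genes. Among 10 genes listed here as assembly factors, a role not checked gene by gene, 4 had a thresholded summit, also beside 20.7%. They were CIA30 of complex I at 1417, Cox17, a copper chaperone of complex IV, at 287, bcn92 at 163 and Ccdc56 at 111. A PAR word was found for 2 of these 10, beside 10.3%. The CIA30 peak, above all of the 88 genes, had replicate values of 521, 549 and 351.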

How the data were processed

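Peak lists of Pdp1-eGFP ChIP-seq from 3 embryo replicates were used as deposited, in dm6 coordinates. Per the file listings, the authors called a relaxed list on each replicate and on the pooled replicates against a control and kept a thresholded list by irreproducible discovery rate. For the aligner and the peak caller, names were not given in the sources used here. The deposited signal value is the peak caller's own and is not scaled between lists, whose medians were 21.3, 15.1 and 15.2 in replicates 1, 2 and 3. A mean ± SD over replicates is therefore a description that includes scale. Read numbers were not analysed here, so depth is unknown. The dm3 lists were not used.

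Summits were assigned with Python 3.11.15 and numpy 2.4.6 to every gene with a TSS within 500 bp (Ensembl release 115), and checked on simulated data. Words were searched on both strands of the Release 6 genome. With 1 group and members and lists chosen with earlier results of these data known, no test was made: shares stand beside those of all other protein-coding genes. Genes were named if they had a thresholded promoter summit or a PAR word in the promoter window, and the 12 highest were given in full. Alternatives changed the TSS and word distances, the peak list, replicates, gene assignment and member rule.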

Additional observations from a re-analysis of the deposited data

How the results depend on the processing

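The count of 20 genes with a thresholded promoter summit moved by over 1.5 times under some settings, and other genes moved with it. It was 11 among the higher-signal part of the thresholded list, above its median (12.5% of the 88, beside 12.4% of other genes), 12 with support in the highest peaks of all 3 replicates (13.6%, beside 12.2%), 12 when each summit counted only for the nearest TSS, and 49 in the pooled list. Requiring support from the other 2 replicates, with each replicate left out in turn, gave 12 to 15 genes, the lowest without replicate 1 (13.6%, 17.0% and 17.0% without replicates 1, 2 and 3, beside 13.2%, 15.3% and 13.9% of other genes). A TSS distance of 200 bp gave 15 genes (17.0%, beside 14.8%) and 1000 bp gave 22 of 88, beside 23.8%. Leaving out the paralogs left 20 of 64 genes (31.2%). The planned removal of COX assembly factors took out no gene, and removing Sdhaf3, an alternative chosen after seeing the data, also left 20. The count of 0 PAR words at thresholded summits was 0 under all 8 alternatives run. Only the distance of 100 bp and the added TTATATAA could have raised it. The other alternatives narrowed the word, the distance or the set of summits, so they could give only 0. The 8 genes with a PAR word in the promoter window became 43 within 500 bp of a TSS, 2 for TTACGTAA alone (2.27%, beside 0.577%), and 4 between 250 bp before and the TSS, a window chosen after seeing the data (4.55%, beside 2.99%). Precision is limited by the number of genes, 4 to 34 subunits per complex, and depth is unknown.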

Other observations

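Genes of the tricarboxylic acid cycle, which feeds the chain with NADH and succinate, were listed with Pdha, Pdhb and muc of the pyruvate dehydrogenase complex, which supplies the cycle. Of these 14 genes, 7 had a thresholded promoter summit (95% Wilson interval 26.8 to 73.2%, which covers counting error only) and 9 a PAR word within 500 bp of a TSS (64.3%), beside 31.7% and 63.5% of respiratory subunits and 20.7% and 10.3% of all other protein-coding genes. The 7 were Fum1 at a signal of 598, which is the ND-ASHI peak, mAcon1 at 332, Idh3g at 303, Idh3b at 265, Pdhb at 185, muc at 148 and Idh3a at 144, of which Pdhb and muc are of pyruvate dehydrogenase. All 3 subunit genes of the NAD-dependent isocitrate dehydrogenase, Idh3a, Idh3b and Idh3g, were thus in the list. Of 11 PAR words in these 14 genes, 0 had a thresholded or pooled summit within 100 bp. The shares for words near other genes were 4.87% and 11.1%, and 11 words are too few to tell 0 from these.

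Among 15 genes for mitochondrial DNA maintenance, mitochondrial transcription and nuclear regulators of respiration, 3 had a thresholded summit (20.0%, beside 20.7% of other protein-coding genes) and 12 a pooled one (80.0%, beside 51.1%), so the thresholded share is at the background. The 3 were ERR, the estrogen-related receptor that controls carbohydrate metabolism in the fly, at 402, mtSSB, which binds single-stranded mitochondrial DNA, at 375, and mtTFB1 at 111. The mtTFB1 peak is also that of Ccdc56. PolG1, the catalytic subunit of the mitochondrial DNA polymerase, had no promoter summit in any list.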
